A study of Mus musculus with 17 samples.

Results

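Small nucleolar RNAs and the genes that carry them were examined in RNA-seq of mouse pancreatic islets, the clusters of insulin- and glucagon-secreting cells of the pancreas. The members were taken by symbol from the reference annotation (GENCODE M21): every gene whose symbol starts with Snora, Snord, Scarna or Snhg, and Gas5, Rn7sk, Rmrp, Rpph1 and Terc. The rule took 171 annotated identifiers, of which 132 had a row among the 78239 gene identifiers of the first table of counts and 56 among the 73212 of the second. The 132 comprised 37 Snora, 70 Snord, 6 Scarna and 15 Snhg identifiers, Gas5, Rpph1 and 2 for Rmrp. The 171 include Rn7sk and Terc, the RNAs of the 7SK particle and of telomerase, which were not analysed here.

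The first table holds 12 biological replicates, each taken here as a single male mouse, in 4 groups of 3. Pax4 HH mice were homozygous for an R200H substitution in the endogenous Pax4 gene, the mouse counterpart of the human R192H variant, and Pax4 WT mice were their wild-type littermates, both on a C57BL6/N background. The SCD groups, fed standard chow, were 12 weeks of age, and the HFD groups, which had received a high-fat diet for 4 weeks, were 16 weeks of age, so diet and age cannot be told apart. The second table holds 5 replicates, likewise taken as single male mice, that were 20 weeks old after 8 weeks of HFD. They comprised 3 Pax4-BiKO mice, which carried floxed Pax4 alleles and a tamoxifen-inducible Cre recombinase driven by the Pdx1 promoter, and 2 Control mice with floxed alleles and no Cre. All 5 of these mice received tamoxifen at 7 to 9 weeks of age. Pdx1 is active in β cells and in other cells of the pancreas.

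Most small nucleolar RNAs sit inside introns of other genes and are released when the host transcript is spliced and trimmed. Box C/D RNAs (Snord) guide ribose methylation and box H/ACA RNAs (Snora) guide pseudouridylation, mainly of ribosomal RNA, while the small Cajal body RNAs (Scarna) guide the same changes on spliceosomal RNAs. Snhg genes and Gas5 are hosts whose spliced transcripts mostly encode no conserved protein. Rmrp and Rpph1 are the RNA parts of the RNase MRP and RNase P enzymes, which cut precursors of ribosomal and transfer RNA.

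The RNAs shown are 4 short ones that were near 0 on SCD and higher on HFD, and 3 longer ones. Capitals mark the ACA tail of the H/ACA RNAs, the TGATGA C box and CTGA D box of Snord17, and the D box of Snord22. Sequences are from GENCODE M21 on GRCm38, given 5′ to 3′ on the strand of the gene. The short RNAs are Snora78 in Snhg9 (chr17:24719676-24719803, minus strand, 128 bases), Snora7a in Rpl32 (chr6:115807975-115808114, minus strand, 140 bases), Snora26 in Dancr (chr5:74093530-74093650, plus strand, 121 bases) and Snord22 in Snhg1 (chr19:8725866-8725991, plus strand, 126 bases).
Snora78: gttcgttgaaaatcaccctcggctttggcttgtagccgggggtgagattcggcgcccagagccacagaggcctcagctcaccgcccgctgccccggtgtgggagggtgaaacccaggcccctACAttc
Snora7a: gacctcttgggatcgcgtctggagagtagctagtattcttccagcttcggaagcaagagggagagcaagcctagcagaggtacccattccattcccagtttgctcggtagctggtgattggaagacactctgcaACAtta
Snora26: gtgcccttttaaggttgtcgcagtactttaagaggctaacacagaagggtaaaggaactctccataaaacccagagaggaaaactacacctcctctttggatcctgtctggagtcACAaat
Snord22: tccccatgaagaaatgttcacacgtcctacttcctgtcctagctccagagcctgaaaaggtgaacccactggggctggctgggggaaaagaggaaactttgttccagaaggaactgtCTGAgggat

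The longer RNAs are Snora73a (chr4:132352775-132352979, minus strand) and Snora73b (chr4:132352322-132352526, minus strand), both 205 bases long and both in Snhg3, and Snord17 in Snx5 (chr2:144265979-144266216, minus strand, 238 bases). Snora73a and Snora73b are identical at 198 of 205 positions (96.6%) when laid side by side without gaps, so reads may have been shared between them and their separate counts are uncertain.
Snora73a: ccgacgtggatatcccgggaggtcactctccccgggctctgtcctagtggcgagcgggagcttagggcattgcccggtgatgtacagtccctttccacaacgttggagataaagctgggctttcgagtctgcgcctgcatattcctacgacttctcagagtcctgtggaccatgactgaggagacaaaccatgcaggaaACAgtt
Snora73b: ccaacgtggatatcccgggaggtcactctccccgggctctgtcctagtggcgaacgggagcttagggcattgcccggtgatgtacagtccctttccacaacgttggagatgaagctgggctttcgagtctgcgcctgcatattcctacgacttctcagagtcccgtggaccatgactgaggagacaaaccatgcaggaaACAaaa
Snord17: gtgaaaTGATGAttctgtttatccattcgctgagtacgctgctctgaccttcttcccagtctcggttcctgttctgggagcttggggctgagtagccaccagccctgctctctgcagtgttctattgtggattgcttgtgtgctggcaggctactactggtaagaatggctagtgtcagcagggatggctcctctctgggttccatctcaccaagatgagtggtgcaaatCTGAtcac

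An ACA followed by exactly 3 bases at the 3′ end was present in 30 of the 37 Snora sequences (81.1%), in 0 of the 70 Snord sequences and in 98 of 7223 other annotated transcripts of 100 to 300 bases (1.4%). A TGATGA within the first 25 bases was found in 45 of 70 Snord sequences (64.3%) against 1.2% of the other transcripts, and a CTGA within the last 25 bases in 69 of 70 (98.6%) against 11.8%. Each motif was searched on the annotated strand only. These shares describe the letters of the annotated windows.

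Total counts per mouse were 24268150 to 42679673 in the first table and 28618787 to 31887499 in the second. Pax4 was listed at 0 in all 17 mice, so these counts check neither the substitution nor the deletion. Islet markers averaged 10.01 to 10.6 on the log2 CPM scale in the first table and 10.9 to 11.05 in the second (CPM, counts scaled to a common library size by TMM). In the first table their means were separated by diet. They were 10.01 to 10.31 in Pax4 WT SCD and 10.35 to 10.53 in Pax4 WT HFD, and 10.10 to 10.34 in Pax4 HH SCD and 10.43 to 10.60 in Pax4 HH HFD. The part of this shift in the diet results was not tested. Markers of acinar cells, the enzyme-secreting cells around the islets, averaged 8.13 to 9.02 in Pax4 WT SCD, 8.14 to 8.63 in Pax4 HH SCD, 8.39 to 9.04 in Pax4 WT HFD and 9.59 to 10.97 in Pax4 HH HFD. In bulk islets, a change in the share of a cell type cannot be told apart from a change in the RNA of each cell.

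The shortest small RNAs had no counts, and those of middle length were counted in part. In the first table, all 67 Snora, Snord and Scarna identifiers shorter than 121 bases were listed at 0 in all 12 mice, including all 60 under 100 bases. Of the 44 of at least 100 and under 150 bases, 27 had a count and 16 had a total of at least 10, the shortest being Snora26 at 121 bases. The other 17 were at 0, and 10 of them were at least 121 bases long, as were those with counts. All 9 of 150 bases or more had counts. In the second table, the shortest member with a row was 130 bases long, and the 76 identifiers with a row in the first table alone were all 129 bases or shorter. Of its 28 small RNAs under 150 bases, 10 had a count and 1 reached a total of 10, Snord15b with 17 counts over 5 mice, and 1 of its 3 of at least 150 and under 200 bases was at 0. In the diet and genotype table, 5 of 70 Snord RNAs and 28 of 37 Snora RNAs had any count, and the classes were not compared at matched length. An entry listed at 0 here says nothing of whether the RNA was made.

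**Figure D1:**
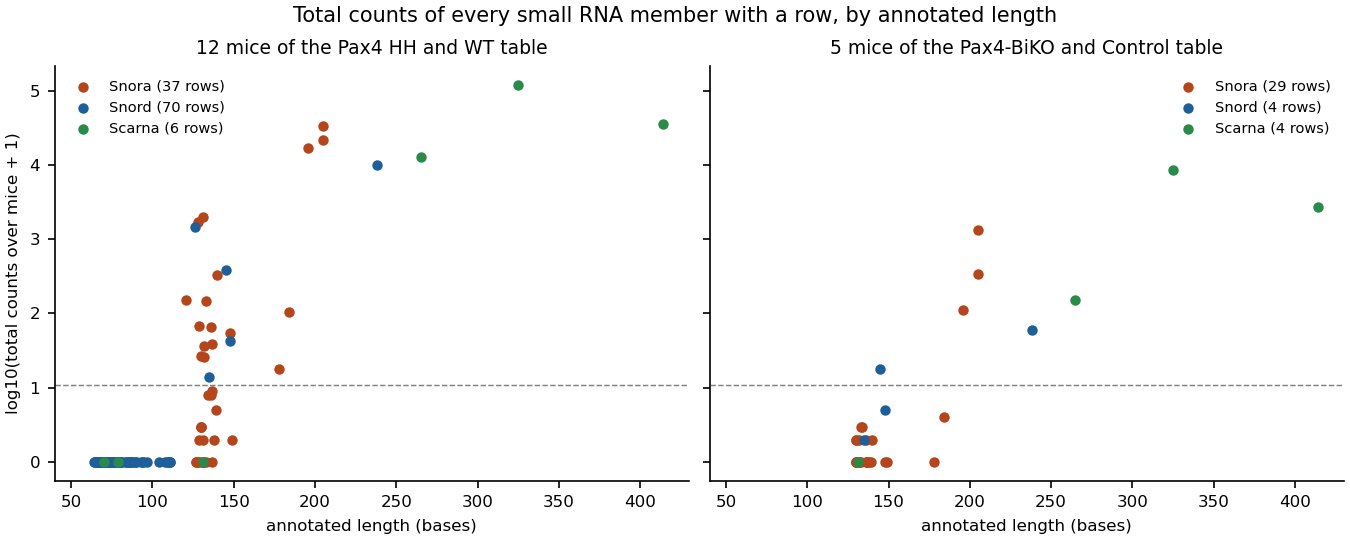
Total counts over all mice of a table, as log10 of the total plus 1, against annotated length in bases, with 1 point for each Snora, Snord or Scarna identifier that has a row; the dashed line marks a total of 10. In the first table (left) no identifier under 121 bases has a count, and in the second (right) Snord15b is the only one under 150 bases above the line.

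A filter on low counts left 33 members for testing in the first table (9 Snora, 3 Snord, 3 Scarna, 14 Snhg, Gas5, Rpph1 and both Rmrp identifiers) and 25 in the second. Those tested passed in part through the groups in which they were high. A gene was called when edgeR's quasi-likelihood test gave a Benjamini-Hochberg adjusted p below 0.05 over all genes of the table and the absolute log2 fold change exceeded 0.5. Per kilobase of annotated length, the members spanned a wide range: Rpph1 averaged 36106 CPM per kilobase in Pax4 WT SCD, the shorter Rmrp identifier 9503, Scarna10 953, Snora73a 268, Gas5 21.5, Snhg1 6.41 and Snora68 3.72.

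In Pax4 HH islets, 10 of the 12 tested Snora and Snord RNAs were called higher on HFD than on SCD. Of 33 tested members, 13 were called higher and 1 lower in Pax4 HH HFD than in Pax4 HH SCD, while 9.75% of all genes tested were called higher and 5.91% lower. The 13 comprised 8 of 9 Snora RNAs (Snora26, Snora68, Snora73a, Snora73b, Snora74a, Snora78, Snora7a and Snora9), 2 of 3 Snord RNAs (Snord15b and Snord22), Snhg18, the longer Rmrp identifier and Rpph1. The median log2 fold change was 4.30 over the 9 Snora RNAs, also with Snora26 at its lower bound, 3.01 over the 3 Snord RNAs, 0.66 over the 3 Scarna RNAs and -0.08 over the 14 Snhg genes, beside -0.06 over all genes tested. Of the 7 Snora and Snord RNAs under 150 bases, Snora26, Snora7a and Snora9 passed the filter on low counts through the HFD mice only. That largely fixed their direction. The other 4 would have passed in the SCD mice of both genotypes taken alone, and the filter was not run on the Pax4 HH SCD mice by themselves. These medians and counts are therefore a description. With at least 10 counts required in every mouse, 6 member calls were left (Snora73a, Snora73b, Snora74a, Snhg18 and the longer Rmrp identifier higher, Snhg14 lower).

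The scale also bears on these values. TMM factors were above 1 in every Pax4 HH SCD mouse and 0.692 to 0.823 in Pax4 HH HFD. With libraries scaled to their total counts alone, an alternative chosen after seeing the data, the median log2 fold change over all genes tested moved from -0.06 to -0.79, and 339 genes were called higher and 8600 lower, against 1865 and 1131 with TMM. On that scale 12 members were called higher, the same as with TMM apart from Rpph1, and 12 lower, Gas5 and 11 Snhg genes. The log2 fold changes of 9 members changed sign, from above to below 0, namely Gas5, Snhg8, Snhg15, Snora23, Snord17, Scarna2, Scarna10, Rpph1 and the shorter Rmrp identifier, and of these Gas5 (-0.71, adjusted p = 0.00428) and Snhg8 (-0.61, adjusted p = 0.0141) were then called lower.

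Snora68, an H/ACA RNA, was counted at 0.0763, 0.132 and 0.267 CPM in the 3 Pax4 HH SCD mice and at 18.5, 10.1 and 9.10 CPM in the 3 Pax4 HH HFD mice. Every HFD mouse lay above every SCD mouse, and the log2 fold change was 6.37 (SE 0.60, adjusted p = 0.000108, edgeR). Snord22, a box C/D RNA needed for processing of small-subunit ribosomal RNA, went from 0.102, 0.395 and 0.382 CPM to 19.1, 10.9 and 6.26 CPM, a log2 fold change of 5.39 (SE 0.58, adjusted p = 0.000153, edgeR). Its HFD values spread over 3-fold between mice, with no overlap with SCD. Snora78 rose from 0.432, 0.447 and 0.305 CPM to 11.3, 8.22 and 8.58 CPM (log2 fold change 4.54, SE 0.59, adjusted p = 0.000401, edgeR). Snora7a, in the ribosomal protein gene Rpl32, rose from 0.0254, 0.105 and 0.153 CPM to 2.33, 2.22 and 0.987 CPM (log2 fold change 4.30, SE 0.78, adjusted p = 0.00303, edgeR). Snora78 and Snora7a were separated completely between the diets. Snora7a passed the filter on low counts through the HFD mice only, which largely fixed its direction. In the Pax4 HH SCD mice 1 count was worth 0.0254, 0.0263 and 0.0382 CPM, so the SCD levels of Snora68 and Snora7a rest on few counts.

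Snora26 and Snora9, whose direction the filter largely fixed too, and Snord15b were fainter. Snora26 was at 0 counts in all 3 Pax4 HH SCD mice and at 53, 24 and 16 counts in the HFD mice. Against a floor of 3 counts over the SCD group, it was at least 38.1-fold higher on HFD. Snora9 had 3 counts over the SCD group and 77 over the HFD group, a ratio of 31.6 with an exact 95% interval of 10.4 to 156 that covers counting error only. Snord15b, a box C/D RNA that guides methylation of large-subunit ribosomal RNA, rose from 0.178, 0.184 and 0.458 CPM to 3.04, 2.27 and 1.20 CPM (log2 fold change 3.01, SE 0.74, adjusted p = 0.0140, edgeR), and its call was lost without Pax4 HH SCD mouse 1 or 2 or without Pax4 HH HFD mouse 1 (adjusted p = 0.0501 to 0.0552).

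The longer and more abundant H/ACA RNAs changed by less and with smaller errors. Snora74a (196 bases) was at 13.2, 15.03 and 18.02 CPM on SCD and 74.8, 87.2 and 69.3 CPM on HFD (log2 fold change 2.32, SE 0.17, adjusted p = 2.45e-05, edgeR). Snora73a, needed for an early cleavage of the ribosomal RNA precursor rather than for pseudouridylation, was at 29.7, 30.7 and 51.6 CPM on SCD and 151, 166 and 121 CPM on HFD (log2 fold change 1.97, SE 0.28, adjusted p = 0.000765, edgeR). Its near-identical copy Snora73b had a log2 fold change of 1.58 (SE 0.30, adjusted p = 0.00352, edgeR). Neither overlapped between the diets. Snord17 (238 bases) was at 14.2, 19.9 and 34.6 CPM on SCD and 23.2, 28.0 and 23.5 CPM on HFD and was not called. The small Cajal body RNAs Scarna10 (log2 fold change 0.66, adjusted p = 0.0734, edgeR, and -0.07 with total-count scaling), Scarna6 (0.80, adjusted p = 0.0614) and Scarna2 (0.30, adjusted p = 0.289) were not called either. Snord15a and Snord118 had totals of 42 and 13 counts over the 12 mice and were not tested.

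**Figure D2:**
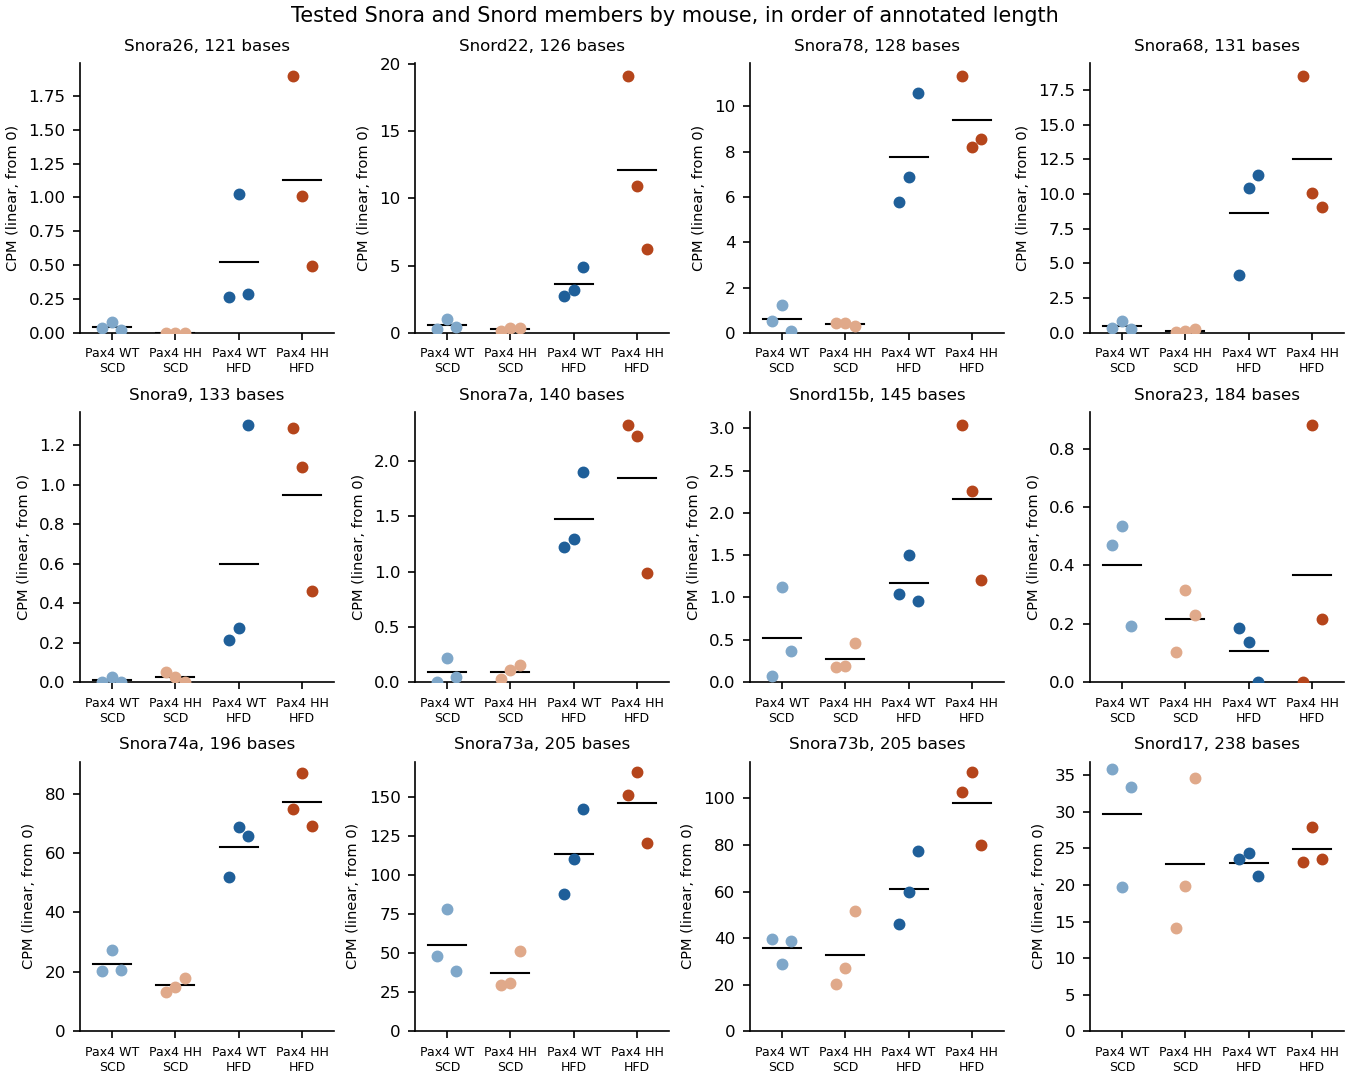
CPM on a linear axis from 0 for the 12 tested Snora and Snord RNAs, in order of annotated length, with 1 point for each mouse and a black line at the group mean of 3 mice. In 10 of the 12 panels every Pax4 HH HFD mouse lies above every Pax4 HH SCD mouse, the others being Snora23 and Snord17, beside 21.3% of all genes tested with this separation and 20.6% with the opposite one. The 10 include Snora26, Snora7a and Snora9, which passed the filter on low counts through the HFD mice only.

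Acinar markers moved with this comparison. In Pax4 HH islets 24 of 25 acinar markers were called higher on HFD, and their mean log2 CPM was 8.14 to 8.63 on SCD and 9.59 to 10.97 on HFD. With the acinar mean as a covariate, 3 of the 14 member calls remained: Snora68 (log2 fold change 5.74, adjusted p = 0.0331, edgeR), Snora74a (2.39, adjusted p = 0.0171) and Snora78 (5.2, adjusted p = 0.0456). Snord22 kept a log2 fold change of 4.66 (adjusted p = 0.0516), and 63 of 2996 calls over all genes were left. Mitochondrial transcripts made up 0.784 to 0.991% of counts in Pax4 HH SCD and 0.337 to 0.463% in Pax4 HH HFD, and the mean log2 CPM of fibroblast and stellate markers was 2.40 to 3.61 and 1.08 to 1.90. The part of these shifts in the result was not tested.

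Several of the same RNAs were called in Pax4 WT islets. Between WT HFD and WT SCD, 4 of 33 tested members were called higher and 0 lower, while 0.204% of all genes tested were called higher. DESeq2 called 12 members here and edgeR without a filter on low counts 13, so the number of calls is no measure of a difference between the genotypes. Snora68 was at 0.337, 0.858 and 0.266 CPM on SCD and 4.16, 10.4 and 11.4 CPM on HFD (log2 fold change 4.13, SE 0.51, adjusted p = 0.00986, edgeR). Snora74a was at 20.2, 27.4 and 20.6 CPM on SCD and 52.1, 68.6 and 65.9 CPM on HFD (1.45, SE 0.17, adjusted p = 0.00986). Snora78 was at 0.505, 1.23 and 0.0724 CPM and then 5.79, 6.89 and 10.6 CPM (3.69, SE 0.55, adjusted p = 0.0136), and Snora7a at 0, 0.215 and 0.0483 CPM and then 1.23, 1.296 and 1.90 CPM (3.97, SE 0.77, adjusted p = 0.0465). None of these 4 overlapped between the diets. The direction of Snora7a was largely fixed by the filter on low counts, which it passed through the HFD mice only.

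In Pax4 WT, 9 of the 12 tested Snora and Snord RNAs lay higher on HFD without overlap and 1 lower, beside 8.47% and 9.46% of all genes tested, and 6 of these 10 had no call. The 9 include Snora26, Snora7a and Snora9, whose direction the filter on low counts largely fixed, so the count is a description. Snord22 was at 0.303, 1.02 and 0.410 CPM on SCD and 2.75, 3.21 and 4.90 CPM on HFD, a log2 fold change of 2.63 (SE 0.52, adjusted p = 0.0506, edgeR). Snora26 had a log2 fold change of 3.39 (SE 0.90, adjusted p = 0.118), and Snora9 had 1 count over WT SCD and 66 over WT HFD, a ratio of 68.0 with an exact 95% interval of 11.8 to 2726. Snora73a (1.05, adjusted p = 0.109), Snora73b (0.78, adjusted p = 0.226) and Snord15b (1.14, adjusted p = 0.450) were not called, and of these only Snord15b overlapped. Snora23, in an intron of Ipo7, went the other way, from 0.472, 0.536 and 0.193 CPM on SCD to 0.187, 0.136 and 0 CPM on HFD, separated but not called (-1.87, adjusted p = 0.482). At an unadjusted p below 0.05, 10 members were higher and 2 lower, beside 1313 and 1602 of the 19137 genes tested. Mitochondrial transcripts (0.720 to 1.32% on SCD, 0.497 to 0.683% on HFD) and the mean log2 CPM of fibroblast and stellate markers (2.02 to 4.71 and 1.12 to 1.67) were separated between the WT groups too, as were macrophage markers (3.00 to 3.498 and 2.48 to 2.57, with 6 of 7 below 0 and 1 called lower), and their part in the result was not tested. Acinar markers overlapped between the WT groups, and 3 of the 4 calls, all but Snora7a, remained with the acinar covariate. Fitted on the 6 WT mice alone, 0 members and 1 of 17592 genes were called, and the calls numbered 2 without WT HFD mouse 3 and 7 without WT HFD mouse 1.

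The summed level of the Snora and Snord RNAs under 150 bases was 1.42 to 5.07 CPM in WT SCD and 1.02 to 1.91 CPM in HH SCD, against 16.6 to 32.8 CPM in WT HFD and 29.1 to 60.3 CPM in HH HFD. The summed level of those of 150 bases or more was 77.3 to 156 CPM over the SCD mice and 210 to 393 CPM over the HFD mice. Neither sum overlapped between the diets.

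Short genes outside the rule were mostly of the same RNA class under other symbols. Of 27 other tested genes with an annotated length below 200 bases, 21 were called higher in Pax4 HH (median log2 fold change 4.07) and 8 in Pax4 WT (median 2.33), and 0 lower in either, beside 9.75% and 0.204% of all genes tested called higher. Of the 27, 17 would not have passed the filter on low counts in the SCD mice alone, so their direction was largely fixed. By annotation, 19 of the 27 are annotated as snoRNA and 2 as scaRNA. In Pax4 HH the medians were 0.35 and 0.33 over the shorter and the longer of the other genes between 200 and 1000 bases. Over genes of 1000 bases or more, the medians were -0.07 in Pax4 HH and -0.01 in Pax4 WT. The part of length in the differences of the members was not tested.

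**Figure D3:**
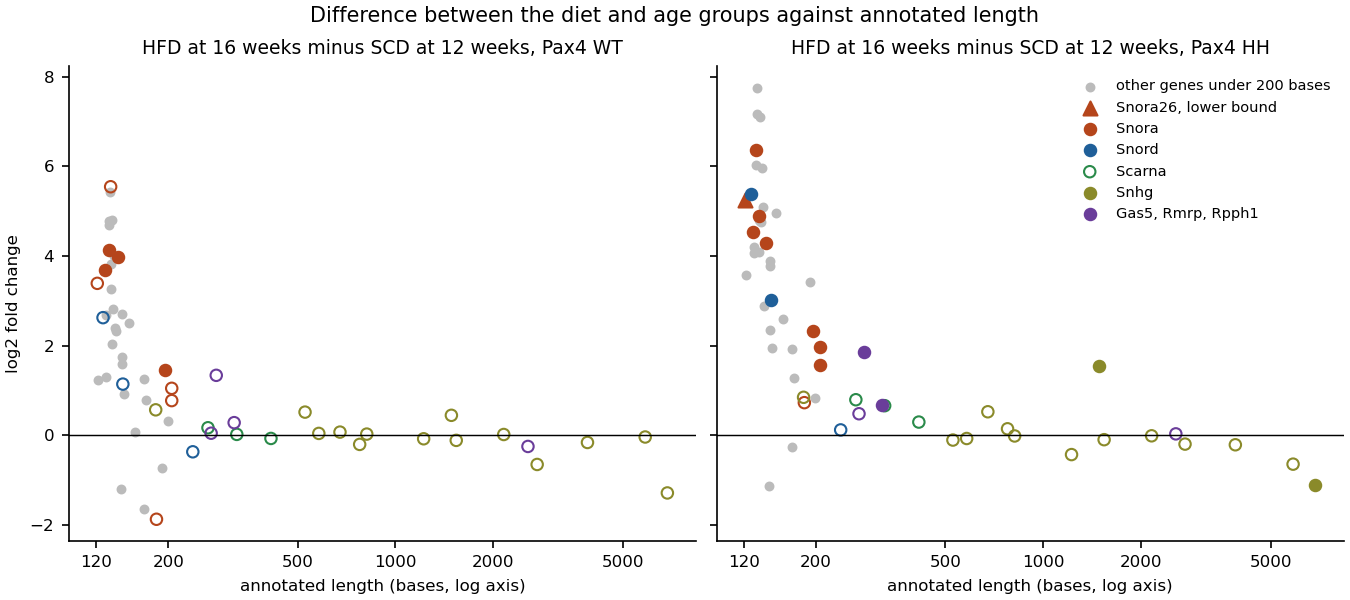
Log2 fold change of HFD at 16 weeks over SCD at 12 weeks, in Pax4 WT (left) and Pax4 HH (right), against annotated length on a log axis; colored circles are the 33 tested members (filled where called), the triangle is Snora26 at its lower bound and grey points are the 27 other tested genes under 200 bases. The 7 tested Snora and Snord RNAs under 150 bases, 3 of which passed the filter through the HFD mice only, lie at or above 3.01 in Pax4 HH, and the Snhg genes have a median of -0.08.

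Between the diets, most small RNAs had a higher log2 fold change than their hosts. For 13 tested small RNAs in 12 tested hosts, the median log2 fold change between HFD and SCD in Pax4 HH was 2.32 for the RNAs and 0.33 for the hosts, and the RNA exceeded its host in 12 of 13 pairs. In Pax4 WT the medians were 1.14 and 0.11, and the RNA exceeded its host in 10 of 13 pairs. These counts include Snora26, Snora7a and Snora9, which passed the filter through the HFD mice only. For the 7 RNAs of 150 bases or more, the RNA exceeded its host in 6 of 7 pairs in Pax4 HH (medians 0.80 and -0.01) and in 4 of 7 in Pax4 WT (0.17 and 0.09). Snord22 was called in Pax4 HH, while Snhg1, in which it lies, had a log2 fold change of -0.19 (adjusted p = 0.45, edgeR). Snora73a and Snora73b were called, while Snhg3 was at -0.07 (adjusted p = 0.85). Rpl32 (1.01) and Rps3 (0.78), ribosomal protein genes that hold Snora7a and Snord15b, were called higher in Pax4 HH, as were 73 of 81 ribosomal protein genes, and Ncapd2, the condensin gene that holds Scarna10, rose by 0.84. Of the small RNAs in these pairs, several overlap an annotated exon of some host transcript (Snord22 and Snora7a, for example), so reads may be shared between RNA and host, while Snora78 and Snora73b lie in introns.

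**Figure D4:**
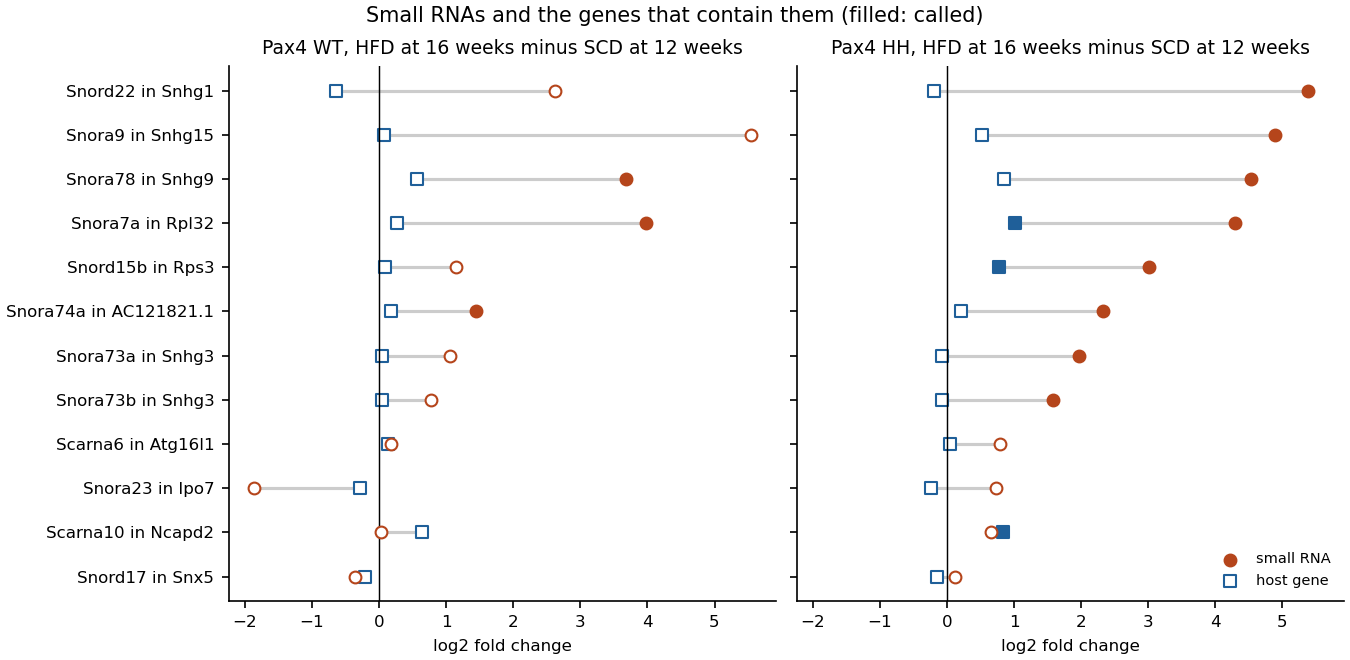
Log2 fold change of HFD over SCD for each small RNA (circles) and the gene that contains it (squares), joined by a line, in Pax4 WT (left) and Pax4 HH (right); filled symbols were called. Snora26 is left out because it was at 0 in all Pax4 HH SCD mice. Squares lie between -0.65 and 1.01, while 8 circles in Pax4 HH lie above 1.5.

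Of 14 tested Snhg genes and Gas5, Snhg18 and Snhg14 were the ones called in any of the comparisons. Between HFD and SCD in Pax4 HH that is 1 of 15 higher and 1 of 15 lower, beside 9.75% and 5.91% of all genes tested. Snhg18 (chr15:32240565-32244662, minus strand), host of a box C/D RNA, was at 5.44, 7.24 and 8.32 CPM in Pax4 HH SCD and 22.7, 20.7 and 17.5 CPM in Pax4 HH HFD, a log2 fold change of 1.54 (SE 0.22, adjusted p = 0.000679, edgeR). In Pax4 WT it was at 6.54, 5.61 and 7.07 CPM on SCD and 6.13, 10.8 and 9.32 CPM on HFD (0.45, adjusted p = 0.35). Snhg14, the long transcript antisense to Ube3a that carries clusters of brain-enriched box C/D RNAs, was at 4.70, 6.45 and 6.03 CPM in Pax4 HH SCD and 2.47, 1.97 and 3.55 CPM in Pax4 HH HFD, and fell by 1.10 on the log2 scale (SE 0.31, adjusted p = 0.0288). It was named after its values were seen. In Pax4 WT its log2 fold change was -1.28 (adjusted p = 0.0904), and the groups did not overlap in either genotype. The Snhg14 call was lost without Pax4 HH SCD mouse 2 or 3 or Pax4 HH HFD mouse 1 or 2.

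The other abundant hosts were not called. Gas5, host of a series of box C/D RNAs, averaged 55.0 ± 5.93 CPM (SD, n = 3) in Pax4 HH SCD and 56.4 ± 5.26 in Pax4 HH HFD on the TMM scale. In Pax4 WT it averaged 54.9 ± 9.10 on SCD and 46.4 ± 8.13 on HFD, with overlapping mice. Snhg1 was at 18.7, 18.3 and 15.5 CPM in WT SCD and 10.4, 12.1 and 11.1 CPM in WT HFD, a separated fall that was not called (log2 fold change -0.65, adjusted p = 0.104, edgeR). Snhg8 averaged 11.9 to 13.3 CPM over the other 3 groups and 10.9 in WT HFD, Snhg20 8.30 to 9.22 and Snhg12 7.10 to 7.66 over the 4 groups, all with overlapping mice.

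Rmrp and Rpph1, the enzyme RNAs, were the most abundant members in the first table. Rpph1 (chr14:50807449-50807767, minus strand) was at 9734, 8694 and 12920 CPM in Pax4 HH SCD and 16003, 19330 and 14846 CPM in Pax4 HH HFD (log2 fold change 0.68, SE 0.22, adjusted p = 0.0452, edgeR). The groups did not overlap on this scale, but the call was lost when Pax4 HH SCD mouse 1 or 2 or any of the 3 Pax4 HH HFD mice was left out (adjusted p = 0.0599 to 0.151). As a share of all counts Rpph1 made up 1.13 to 1.39% in Pax4 HH SCD and 1.11 to 1.34% in Pax4 HH HFD, which overlap, and with total-count scaling its log2 fold change was -0.04 (adjusted p = 0.823). In Pax4 WT it was at 13758, 11615 and 9180 CPM on SCD and 12165, 14496 and 15444 CPM on HFD, with overlap. Rmrp is annotated by 2 overlapping identifiers (chr4:43492783-43493063, minus strand, 281 bases, and 271 bases inside it), so the split of reads between them is uncertain. The longer took 1.86 (SE 0.30, adjusted p = 0.00159) as its log2 fold change in Pax4 HH and the shorter 0.48 (adjusted p = 0.10). Summed, Rmrp was at 2620 to 3422 CPM in Pax4 HH SCD and 4865 to 5793 CPM in Pax4 HH HFD, with a log2 fold change of 0.87 (SE 0.20, adjusted p = 0.00994, edgeR). As a share of all counts it made up 0.338 to 0.369% and 0.371 to 0.403%, and with total-count scaling the log2 fold change was 0.14 (adjusted p = 0.421). In Pax4 WT the sum was at 2820 to 4165 CPM on SCD and 3665 to 4991 CPM on HFD, with overlap (0.44, adjusted p = 0.313). The shorter identifier held 74.6 to 86.0% of Rmrp counts in SCD mice of both genotypes and 55.0 to 69.2% in HFD mice.

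**Figure D5:**
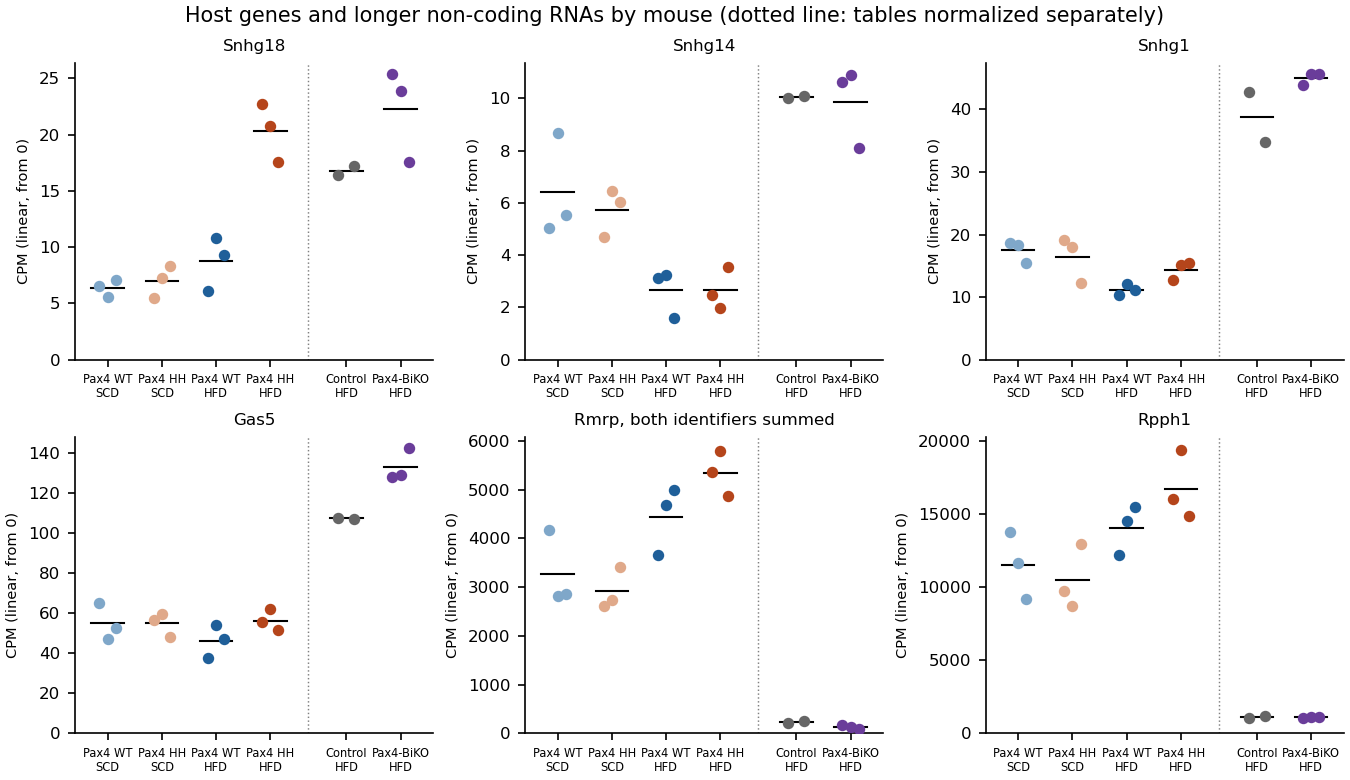
CPM on linear axes from 0 for 4 host genes, for Rmrp with its 2 identifiers summed and for Rpph1, with 1 point for each mouse and a black line at the group mean. The dotted line separates the tables, which were normalized separately. Snhg18 is highest within the first table in the 3 Pax4 HH HFD mice (17.5 to 22.7 CPM), and Snhg14 is lower on HFD in both genotypes.

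The proteins that act with these RNAs were followed through a list of the pathway. Between HFD and SCD in Pax4 HH, 0 of 4 box C/D proteins, 1 of 4 box H/ACA proteins (Nop10, log2 fold change 0.57), 0 of 11 assembly factors, 0 of 4 Cajal body and telomerase genes and 2 of 11 RNase P and MRP proteins (Pop7, 0.94, and Rpp21, 0.85) were called higher. Of 7 genes of the 7SK particle and its P-TEFb partner, the cyclins Ccnt1 (-0.51) and Ccnt2 (-0.56) were called lower, and 0 of 10 nonsense-mediated decay genes were called. Fbl, the methyltransferase of box C/D particles, had a log2 fold change of 0.13 (adjusted p = 0.70, edgeR), and its partners Nop56 and Nop58 0.24 and -0.03. Dkc1, the pseudouridine synthase of H/ACA particles, was at 0.14 (adjusted p = 0.52), and Hexim1 and Larp7, proteins of the 7SK particle, at 0.14 and -0.22. These counts stand beside 9.75% of all genes tested called higher and 5.91% lower. None of the genes of these 7 lists was called in any other comparison.

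The comparison of genotypes on HFD asked which genes the variant altered under the diet. Snhg18 was the 1 of 33 tested members called higher in Pax4 HH HFD than in Pax4 WT HFD, and 0 were lower, beside 1.46% of all genes tested called higher. Its 22.7, 20.7 and 17.5 CPM lay above the 6.13, 10.8 and 9.32 CPM of the WT mice (log2 fold change 1.22, SE 0.21, adjusted p = 0.0126, edgeR). The call was lost without WT HFD mouse 3 or without Pax4 HH HFD mouse 1 or 2 (adjusted p = 0.0541 to 0.0593). The acinar means of these groups did not overlap (8.39 to 9.04 and 9.59 to 10.97), and with the acinar covariate the log2 fold change of Snhg18 was 0.82 (adjusted p = 0.607). Mitochondrial transcripts were separated too, at 0.497 to 0.683% of counts in WT HFD and 0.337 to 0.463% in Pax4 HH HFD. Their part in the result was not tested. Snord22 was at 2.75, 3.21 and 4.90 CPM in WT and 19.1, 10.9 and 6.26 CPM in HH, without a call (1.74, SE 0.46, adjusted p = 0.0673). The fold changes of all 9 Snora RNAs were above 0 with TMM, 4 of them (Snora73a, Snora74a, Snora78 and Snora7a) below 0 with total-count scaling, and none was called (median 0.54, against -0.01 over all genes tested). Snora73b (0.68, adjusted p = 0.259) and Snora74a (0.31, adjusted p = 0.380, and -0.07 with total-count scaling) did not overlap between the genotypes, beside 13% of all genes tested that lay higher in Pax4 HH without overlap.

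On SCD, 0 of 33 members were called between Pax4 HH and Pax4 WT by edgeR, where 0% of all genes tested were called. At an unadjusted p below 0.05, 0 members were higher and 3 lower, beside 210 and 419 of all genes tested, and DESeq2 called 0. The median log2 fold change was -0.56 over the 9 Snora RNAs, and 24 of the 33 members were below 0, beside a median of -0.00 over all genes tested and 9708 of 19137 below 0. With total-count scaling 5 of the 24, Snora7a and 4 Snhg genes, lay above 0. Macrophage markers averaged 3.00 to 3.498 on the log2 CPM scale in WT SCD and 2.51 to 2.59 in Pax4 HH SCD, with 7 of 7 below 0, 4 of them at an unadjusted p below 0.05, and 0 called. Fibroblast and stellate markers overlapped (2.02 to 4.71 and 2.40 to 3.61), with 7 of 7 below 0 and 0 called. The part of either in the result was not tested. Snora26, Snora7a and Snora9 would not have passed the filter in the SCD mice alone, and Snora26 had 0 counts over Pax4 HH SCD and 5 over WT SCD.

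Whether the diet difference itself depended on genotype was tested by the interaction. None of the 33 members was called by edgeR, while 0.131% of all genes tested were. At an unadjusted p below 0.05, 6 members had a larger difference in Pax4 HH and 0 a smaller one, beside 1309 and 838 of the 19137 genes tested. The 6 include Snora26, which passed the filter on low counts through the HFD mice only and had 0 counts over Pax4 HH SCD. DESeq2 called 2, Snord22 and Snora74a. With total-count scaling the median over all genes tested moved from -0.01 to -0.47, 10 members changed sign and 0 were called. The interaction was 2.76 on the log2 scale for Snord22 (SE 0.76, adjusted p = 0.177, edgeR), 1.09 for Snhg18 (SE 0.30, adjusted p = 0.183) and 0.87 for Snora74a (SE 0.23, adjusted p = 0.164).

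The Pax4-BiKO comparison, with all mice on HFD, asked which genes a loss of Pax4 in adult β cells altered. Of 25 tested members, 0 were called between Pax4-BiKO and Control islets by edgeR, where 0.0893% of all genes tested were called. At an unadjusted p below 0.05, 4 members were higher and 5 lower, beside 1256 and 1335 of the 20167 genes tested, and DESeq2 called 2 lower, Snora73a and the longer Rmrp identifier. Snora73a was at 11.3 and 13.8 CPM in the 2 Control mice and 9.39, 5.503 and 5.24 CPM in the 3 Pax4-BiKO mice (log2 fold change -0.90, SE 0.26, adjusted p = 0.267, edgeR). Snora73b was at 2.90 and 3.98 CPM and then 1.59, 1.63 and 1.20 CPM (-1.22, SE 0.27, adjusted p = 0.197). Snora74a, at 28 and 32 counts in Control, was at 32, 13 and 7 counts in Pax4-BiKO (-0.89, adjusted p = 0.593). The first pair was lower in all 3 Pax4-BiKO mice, and Snora74a overlapped.

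The summed Rmrp level was 214 and 252 CPM in Control and 83.1 to 170 CPM in Pax4-BiKO (log2 fold change -0.86, SE 0.25, adjusted p = 0.273, edgeR). The longer identifier alone was at -1.01 (SE 0.18, adjusted p = 0.140) and the shorter at -0.82 (adjusted p = 0.294). Rpph1 was at 1059 and 1156 CPM in Control and 1033, 1146 and 1105 CPM in Pax4-BiKO, with overlap. Scarna10 (-0.29, adjusted p = 0.386) and Scarna6 (-0.58, adjusted p = 0.507) were lower in all 3 Pax4-BiKO mice without a call.

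Of the 14 Snhg genes and Gas5, 11 had a log2 fold change above 0 and 4 below, Snhg10, Snhg11, Snhg14 and Snhg17, with 0 called, and Snhg17 lay above 0 with total-count scaling. Gas5 was at 108 and 107 CPM in Control and 128, 129 and 143 CPM in Pax4-BiKO (log2 fold change 0.31, SE 0.08, adjusted p = 0.255, edgeR). Snhg1 (0.22), Snhg3 (0.19), Snhg5 (0.25), Snhg6 (0.22), Snhg8 (0.24), Snhg15 (0.42) and Snhg18 (0.40) were also higher in all 3 Pax4-BiKO mice than in both Control mice. None of them was called. Of all genes tested, 15.9% lay higher without overlap and 16.7% lower. For the 6 small RNAs with a tested host, the host exceeded the RNA in 6 of 6 pairs, with medians of -0.74 for the RNAs and 0.20 for the 5 hosts. The acinar means overlapped (9.05 and 11.1 in Control, 8.54 to 10.8 in Pax4-BiKO), with 25 of 25 markers below 0, a median log2 fold change of -0.69 and 0 called. In counts simulated for this comparison of 3 against 2 mice over 20167 genes, 55.1% of 2-fold and 70.8% of 4-fold changes were recovered. Of the 137 genes called in that simulation, 15 had not been changed.

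Levels between the tables can only be set side by side, since each was normalized on its own and the mice differed in age, diet length and alleles. Rpph1 was at 8694 to 19330 CPM in the first table and 1033 to 1156 CPM in the second, and summed Rmrp at 2620 to 5793 and 83.1 to 252 CPM. Summed Snora and Snord RNAs of 150 bases or more were at 77.3 to 393 and 6.93 to 19.3 CPM, and those under 150 bases at 1.02 to 60.3 and 0.0907 to 0.335 CPM. Gas5 went the other way, at 37.8 to 65.0 CPM in the first table and 107 to 143 CPM in the second. The 2 most abundant identifiers took 36.2 to 53.3% of counts in the first table and 8.68 to 11.1% in the second.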

How the data were processed

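Islet RNA of 17 samples was sequenced from TruSeq Stranded Total RNA libraries as paired-end reads. The authors aligned reads to mm10 with STAR 2.7.1, estimated transcript abundance with RSEM 1.3.3, summed it to genes with tximport and deposited estimated counts per gene, not scaled for depth, in 2 tables. The gene annotation is not given in the sources used here.

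Estimated counts were rounded, and each table was fitted on its own over all its genes (19137 and 20167 tested) with edgeR 4.0.16 in R 4.3.3: TMM, filterByExpr with a minimum count of 10, the quasi-likelihood test with 1 term per group and Benjamini-Hochberg adjustment. Calls required adjusted p < 0.05 together with a log2 fold change beyond 0.5 in either direction. DESeq2 1.42.0, other scalings and filters, models of the compared groups alone, an acinar covariate, a replicate block and leave-one-out fits were alternatives. Summing both Rmrp identifiers and scaling to total counts were chosen after seeing the data. Symbols, lengths, hosts and sequences came from GENCODE M21 on GRCm38, in which 65.8% and 66.7% of identifiers had a symbol. Length is that of the longest annotated transcript. A host is the gene on the same strand whose span holds the RNA, the most abundant where there were several. The host of 1 tested RNA is not reported here. Motifs were searched on the strand of the gene.

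Groups came from the sample labels, which number biological replicates. Each replicate was taken as a single mouse, though the labels do not state whether islets of several mice were pooled. Totals were 24268150 to 42679673 and 28618787 to 31887499 counts, so 1 count is worth 0.0241 to 0.0420 CPM in the first table and 0.0302 to 0.0372 CPM in the second. Intervals and floors (3 counts) cover counting error only. The script was tested on simulated data, in which 36.5% of 2-fold and 73.2% of 4-fold changes were recovered over 19137 genes for HFD against SCD in Pax4 HH. Of the 110 genes called there, 4 had not been changed, and for genotype on HFD it was 8 of 111.

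The members and lists were chosen with earlier results of these data known. Named were the called members (the 12 with the largest absolute log2 fold change where more were called), Gas5, Rmrp and Rpph1, the 5 most abundant of each symbol class in the first table, and Fbl, Nop56, Nop58, Dkc1, Hexim1, Larp7 and every called gene of the protein lists. Other genes named were chosen after their values were seen.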

Additional observations from a re-analysis of the deposited data

How the results depend on the processing

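Calls among members depended on the filter, the tool and the model. With no filter on low counts, the members called numbered 1 for genotype on SCD (0 in the report), 3 for genotype on HFD (1), 13 for diet in Pax4 WT (4), 6 for the interaction (0) and 4 for Pax4-BiKO (0). With at least 10 counts required in every sample, which removes RNAs near 0 on SCD, they numbered 1 for diet in Pax4 WT and 6 for diet in Pax4 HH (14). DESeq2 called 2 for genotype on HFD, 12 for diet in Pax4 WT, 2 for the interaction and 2 for Pax4-BiKO. The acinar covariate left 0 for genotype on HFD and 3 for diet in Pax4 HH. With only the compared groups in the model, 0 were called for diet in Pax4 WT. The cause of these differences was not tested. Scaling to total counts was chosen after seeing the data. Such scaling moved the median of all genes by over 0.2 in both diet comparisons, for genotype on HFD and for the interaction (-0.01 to -0.47). It called 9 for diet in Pax4 WT and 24 for diet in Pax4 HH, and among all tested members it turned the sign of 5 for genotype on SCD, 20 for genotype on HFD, 7 for diet in Pax4 WT, 9 for diet in Pax4 HH, 10 for the interaction and 1 for Pax4-BiKO. These include Snora74a for genotype on HFD (-0.073), the shorter Rmrp identifier for diet in Pax4 WT (-0.22) and Scarna10 (-0.075), Snhg15 (-0.20) and Rpph1 (-0.043) for diet in Pax4 HH. Summed Rmrp for genotype on HFD went from 0.27 to -0.11, with no call. The RLE and upper-quartile scalings, leaving out the 2 largest genes, and summing Rmrp kept each of the 6 counts within 1.5 times its value in the report.

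Leaving out each mouse in turn gave 0 members for genotype on SCD and for the interaction, 0 to 1 for genotype on HFD, 2 to 7 for diet in Pax4 WT, 11 to 14 for diet in Pax4 HH and 0 to 1 for Pax4-BiKO. The shorter Rmrp identifier, at 0.05 for diet in Pax4 WT, ranged from -0.076 to 0.23 and changed sign without WT SCD mouse 2 or WT HFD mouse 2 (-0.0017). Replicate numbers were not stated to pair the mice. Correlations of same-numbered mice, as deviations from group means, ranged from -0.296 to 0.193. With so few mice per group these do not settle whether mice were paired. A fit with the replicate block called 1 member for Pax4-BiKO and 0, 1, 3, 12 and 0 in the other comparisons, in the order genotype on SCD, genotype on HFD, diet in Pax4 WT, diet in Pax4 HH and interaction. RNAs under 100 bases were listed at 0, so no setting bears on them.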

Other observations

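Small RNAs outside the symbol rule were examined too. Among the 27 other tested genes under 200 bases, 15 of 19 annotated as snoRNA were called higher in Pax4 HH (median log2 fold change 4.76) and 8 of 19 in Pax4 WT (median 2.703), by edgeR's quasi-likelihood test with Benjamini-Hochberg adjustment, beside 9.75% and 0.204% of all genes tested. Of these 19, 13 would not have passed the filter on low counts in the SCD mice alone, so their direction was largely fixed by it and the counts are a description. Both scaRNA genes (median 3.27) and both snRNA genes (median 4.19) among them were called higher in Pax4 HH, as were the 2 lincRNA genes Bc1 and Gm28872 (median 2.26), named after their values were seen, and 4 of these 6 (Gm25492, Rnu12, Gm22973 and Gm28872) would not have passed the filter in the SCD mice alone. In Pax4 WT 0 of the 6 were called, and 0 of the 27 were called by the interaction of genotype and diet. On SCD, the 19 snoRNA genes had a median log2 fold change of -1.003 between Pax4 HH and Pax4 WT with 0 called.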
